A study of Homo sapiens with 10 samples.

Results

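The genes described here are the enzymes that build fatty acids from acetyl-CoA and then lengthen and desaturate them, with the transcription factor that drives many of them. They were chosen by name for these roles, with earlier results of these data known. All 10 of 10 symbols were found among the 57353 gene symbols of the counts table. ACLY and ACSS2 supply acetyl-CoA, ACACA and ACACB carboxylate it to malonyl-CoA, and FASN joins these units into palmitate. ELOVL6 lengthens palmitate, SCD places a double bond in saturated chains, FADS1 and FADS2 desaturate polyunsaturated chains, and SREBF1 encodes the SREBP-1 proteins. All 10 passed the filter on low counts and were among the 17230 genes tested.

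In most normal adult tissues this pathway runs at a low rate, because cells take up fatty acids from the circulation. Prostate cancer cells are known for high FASN, and androgen signalling and the SREBP factors are known to raise transcription of several of these enzymes. Malonyl-CoA, the product of the acetyl-CoA carboxylases, is also the natural inhibitor of CPT1A, the outer mitochondrial membrane enzyme that commits long-chain fatty acids to oxidation, so that synthesis and oxidation are coupled by a shared metabolite.

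RNA was sequenced from 10 samples of LNCaP-C4-2, a human prostate cancer line that models castration-resistant disease and grows without androgen. The study set loss of CPT1A beside excess CPT1A. Every line came from the same parental cells and was made with lentivirus. All grew in the same serum-containing medium, to which amino acids and insulin were added. The NT line (2 samples) carried a control hairpin that the labels call scrambled and the methods call non-targeting, and the KD line (3 samples) carried a hairpin against CPT1A. Both were selected with puromycin at 1 µg/ml. The EV line (2 samples) carried an empty vector and the OE line (3 samples) a CPT1A cDNA, and both were selected with blasticidin at 5 µg/ml. The methods name 1 hairpin sequence and 1 cDNA clone, and no separate transductions, so the samples of a group are taken as samples of 1 line. P-values then measure only the spread between these samples, which may be technical, and a difference between lines that arose at transduction or selection cannot be told apart from an effect of CPT1A.

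The targeted gene followed the labels in every sample. CPT1A was at 265.5 and 261.7 CPM (counts scaled to a common library size with TMM) in the NT samples and at 81.25, 86.44 and 86.18 in the KD samples. It was at 325.7 and 317.7 CPM in the EV samples and at 869.8, 913.8 and 861.1 in the OE samples. No KD sample came near an NT sample and no OE sample came near an EV sample. Total counts per sample ranged from 23555205 in OE replicate 2 to 28615770 in KD replicate 3, so that 3 counts corresponded to between 0.0995 and 0.136 CPM. The scarcest measured value of the 10 genes was 207 counts, for ELOVL6 in NT replicate 2.

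The label of a prostate luminal line was checked against 10 luminal markers, all of which were present. Their summed level was 6442 and 6722 CPM for NT against 9210 to 10064 for KD. It was 9247 and 8817 for EV against 12261 to 12718 for OE, and KLK3 was the most abundant. Of the markers of other cell types, KRT5, COL1A2, ADIPOQ and ALB had 0 counts in every sample, and TP63, PTPRC and LEP never exceeded 3 counts. Others were detected at low levels: APOA1 of hepatocytes reached 1.702 CPM, PLIN1 of adipocytes 0.6707 and CD68 of macrophages 0.3018 in their highest samples. PLIN1 was at 0.1946 mean CPM in NT and 0.5996 in KD (log2 1.61 ± 0.46; edgeR quasi-likelihood, Benjamini-Hochberg adjusted p = 0.00428), which did not pass the limit used below. The luminal markers were themselves not level between lines. KD versus NT raised 5 of the 10 and lowered 1, where 16.4% of all tested genes were called higher and 12.8% lower. OE versus EV raised 5 and lowered 1, beside 11.6% and 10.3% of all genes, and EV versus NT raised 6 and lowered 0, beside 5.25% and 2.91%. What part this has in the results below was not tested.

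Because several of the genes moved together across the lines, the start regions of 4 of them are shown: ACLY and SCD, which rose in both arms, SREBF1, which encodes the factor, and ACACB, which passed the test in neither arm. These are the 250 bases before an annotated start (RefSeq, GRCh38.p14), written 5′ to 3′ on the gene's strand, with capitals for the CCAAT box (CCAAT) and the GC box (GGGCGG) on either strand. ACLY and ACACB each have a further annotated start. That of ACACB, at the first base of the gene, held none of the motifs searched, and the ACACB start shown was picked with its matches known.
ACLY (chr17:41919023-41919272, minus strand): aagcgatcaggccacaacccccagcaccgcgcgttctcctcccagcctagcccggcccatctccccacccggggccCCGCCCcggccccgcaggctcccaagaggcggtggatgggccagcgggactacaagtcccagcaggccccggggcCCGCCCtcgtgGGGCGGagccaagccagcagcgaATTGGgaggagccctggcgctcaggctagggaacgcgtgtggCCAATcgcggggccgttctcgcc
SCD (chr10:100346983-100347232, plus strand): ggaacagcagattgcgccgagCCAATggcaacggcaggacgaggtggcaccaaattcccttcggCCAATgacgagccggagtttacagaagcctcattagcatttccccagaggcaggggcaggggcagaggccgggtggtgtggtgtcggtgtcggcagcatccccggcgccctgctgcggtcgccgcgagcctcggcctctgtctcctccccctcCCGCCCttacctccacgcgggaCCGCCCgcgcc
SREBF1 (chr17:17836987-17837236, minus strand): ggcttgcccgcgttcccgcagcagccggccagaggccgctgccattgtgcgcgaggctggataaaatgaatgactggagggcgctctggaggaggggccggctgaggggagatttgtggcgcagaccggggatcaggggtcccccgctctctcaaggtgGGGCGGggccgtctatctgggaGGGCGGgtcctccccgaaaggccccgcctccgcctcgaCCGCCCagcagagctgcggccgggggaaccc
ACACB (chr12:109154429-109154678, plus strand): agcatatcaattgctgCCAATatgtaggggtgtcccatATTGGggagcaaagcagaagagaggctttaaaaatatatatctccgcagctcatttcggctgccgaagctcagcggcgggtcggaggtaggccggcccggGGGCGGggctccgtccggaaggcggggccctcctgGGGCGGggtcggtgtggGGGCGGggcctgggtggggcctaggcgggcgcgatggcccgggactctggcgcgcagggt

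Start regions of 300 bases (250 before and 50 after a start) were found for 9 of the 10 genes, and FASN had no entry. A CCAAT box was found in a start region of 6 of the 9 genes (ACACA, ACACB, ACLY, ACSS2, FADS2 and SCD), and in 8 of their 15 start regions. Of 27305 genes, 39.7% held it in any start region, and of tested genes 42.9%. It was in 34.6% of all 35116 regions and in 34.5% of those of tested genes. SCD held it at positions -229 and -186 from the start, both on the gene's strand. A GC box was found for all 9 and in 12 of the 15 regions, beside 48.3% of all genes, 76% of tested genes, 45% of all regions and 65.2% of the regions of tested genes. The letters TCACNCCAC, a loose form of the SREBP element, and the E-box CACGTG were in none of the 9, beside 1.39% and 8.77% of all genes. Both strands were searched, neighbouring GC boxes of ACACA overlapped each other, and a match or its absence says only which letters the window holds.

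Levels were compared between genes per kilobase of exon, with all annotated exons of a gene merged. That length may exceed the transcript in these cells, so the order between genes rests on it and the SDs do not cover it. In NT the order was FASN at 125 ± 3.6 CPM per kb (SD, n = 2), ACLY at 86 ± 0.32, SCD at 81.5 ± 3.3, ACACA at 46.3 ± 0.37, SREBF1 at 33.8 ± 0.66 and FADS2 at 30.4 ± 0.75. FADS1 followed at 10.1 ± 0.01, ACSS2 at 5.74 ± 0.14, ACACB at 1.24 ± 0.051 and ELOVL6 at 1.18 ± 0.077. The mRNA of the abundant cytosolic enzymes thus exceeded that of ACACB, the carboxylase of the mitochondrial surface, by a wide margin. Per kb, ACACB and ELOVL6 did not differ beyond their spread. Before division by their merged lengths of 14513 and 7274 bases, their NT means were 17.95 and 8.619 CPM. In OE, FASN at 360 ± 6.3 CPM per kb (SD, n = 3) was followed by SCD at 292 ± 2, ACLY at 147 ± 4.4 and FADS2 at 125 ± 0.063, with ACACB last at 1.09 ± 0.079. SCD therefore stood above ACLY in OE, as it did in EV (167 beside 123) and in KD (195 beside 149), whereas in NT it stood slightly below ACLY. Together the 10 genes took 0.342% and 0.346% of all counts in the NT samples, 0.603% to 0.613% in EV, 0.834% to 0.841% in OE and 0.876% to 0.901% in KD. After TMM scaling the sums of OE and KD overlapped, at 8741, 8930 and 8853 CPM for OE against 8640, 8833 and 8313 for KD, so their order depends on scaling. NT had the lowest mean CPM of the 4 lines for 9 of the 10 genes, and the highest mean was in KD for 6 and in OE for 4.

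**Figure D1:**
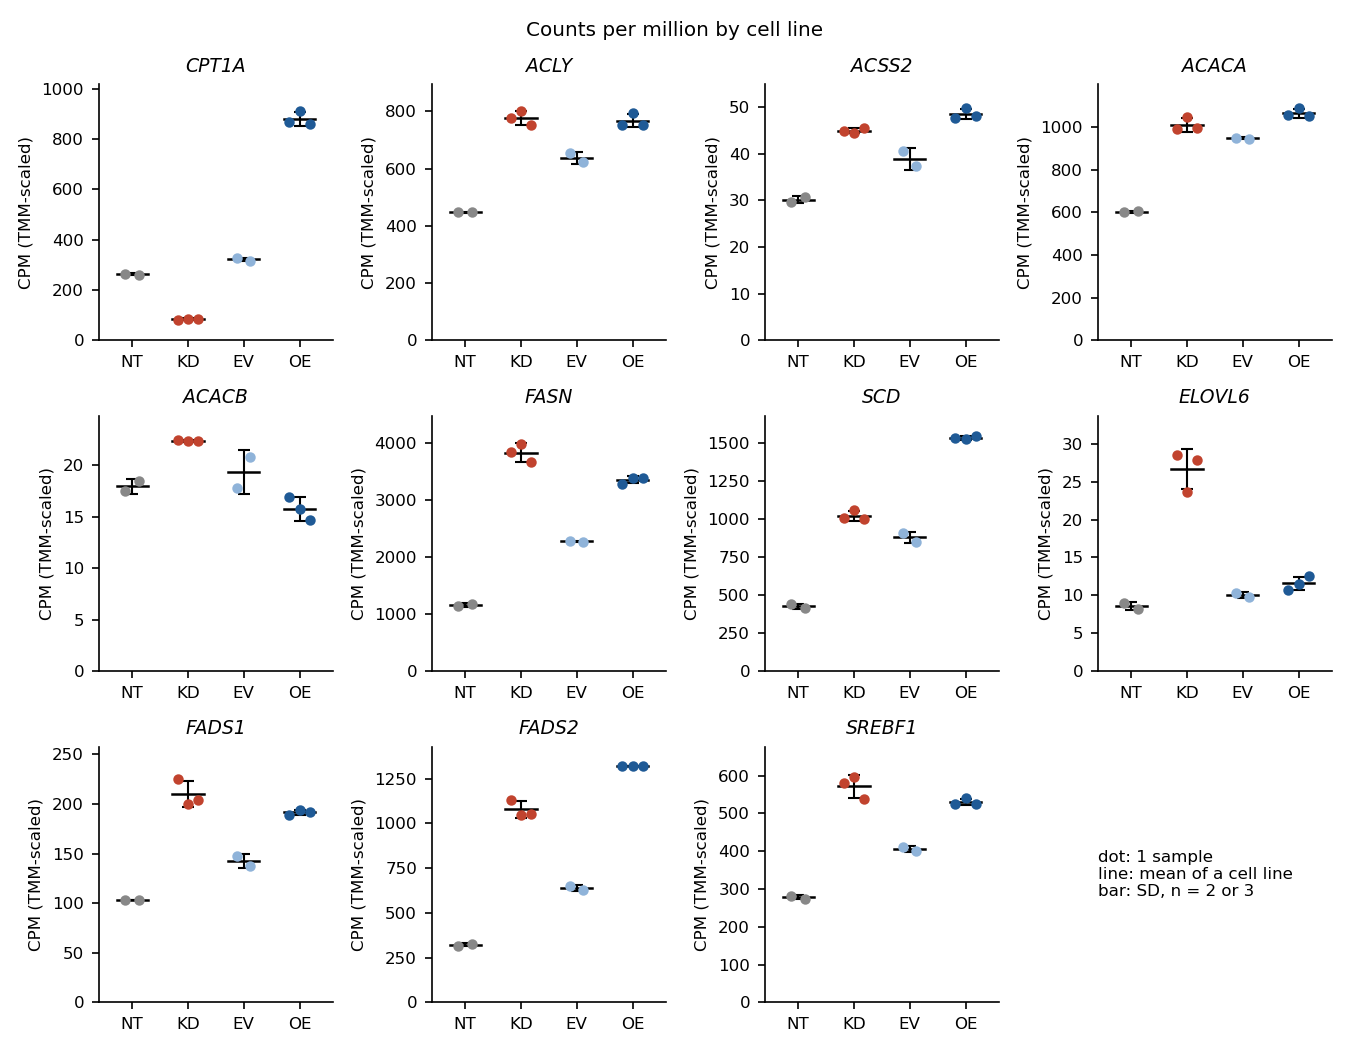
CPM (TMM-scaled, vertical axis from 0) of CPT1A and the 10 lipogenic genes in each of 10 samples, with 1 dot per sample, the mean of each line as a horizontal line and its SD as a bar. CPT1A was lowest in KD and highest in OE, whereas 9 of the 10 lipogenic genes were lowest in NT.

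The comparison of KD with NT asks what loss of CPT1A mRNA goes with. Nearly the whole pathway was higher in the KD line. Of the 10 genes, 9 rose and 0 fell at an adjusted p under 0.0001 (edgeR quasi-likelihood test, adjusted by Benjamini-Hochberg, or BH, over all tested genes), where 16.4% of all tested genes were called higher and 12.8% lower. The median log2 fold change of the 10 was 1.03, beside a median of -0.02 over all genes. The synthase, the palmitate elongase and the polyunsaturated chain desaturase FADS2 moved most, each to over 3 times its NT level, and the acetyl-CoA suppliers and the main carboxylase moved less.

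Of the acetyl-CoA suppliers, ACLY, which cleaves cytosolic citrate, was at 449.1 and 446.8 CPM in the NT samples and at 775.6, 802.7 and 753.5 in the KD samples. All KD samples lay far above both NT samples. ACLY rose 1.74-fold, with a log2 fold change of 0.80 ± 0.05 (SE; edgeR quasi-likelihood, BH-adjusted p = 5.93e-13). ACSS2, which makes acetyl-CoA from acetate, was a much scarcer mRNA at 29.58 and 30.62 CPM in NT and 44.86, 44.34 and 45.41 in KD. It rose 1.49-fold (log2 0.58 ± 0.06; edgeR quasi-likelihood, BH-adjusted p = 1.84e-08). The cytosolic carboxylase ACACA, the rate-limiting step of synthesis, was at 599.5 and 606.4 CPM in NT and at 987.4, 1047 and 993.2 in KD, a rise of 1.67-fold (log2 0.74 ± 0.05; BH-adjusted p = 1.16e-12). Its paralogue ACACB, whose malonyl-CoA is known to act on CPT1 at the mitochondrial surface, was at 17.43 and 18.47 CPM in NT and at 22.41, 22.29 and 22.29 in KD. Those ACACB groups did not overlap, but the log2 difference of 0.32 ± 0.08 did not pass the limit (edgeR quasi-likelihood, BH-adjusted p = 0.00225), and it passed at a limit of 0.05.

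FASN (chr17:82078338-82098294, minus strand) held the most counts of the pathway. It was at 1139 and 1186 CPM in the NT samples and at 3839, 3992 and 3672 in the KD samples. FASN alone took 0.115% and 0.12% of all counts in NT and 0.387% to 0.404% in KD. The groups were far apart, and FASN rose 3.3-fold (log2 1.72 ± 0.05; edgeR quasi-likelihood, BH-adjusted p = 4.16e-18). SREBF1 (chr17:17810399-17837002, minus strand) was at 282.3 and 274.6 CPM in NT and at 580.3, 596.5 and 538 in KD, and rose 2.05-fold (log2 1.04 ± 0.05; BH-adjusted p = 1.03e-14). The counts do not separate SREBP-1a from SREBP-1c transcripts, and they say nothing of the cleavage that makes the protein active.

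ELOVL6 (chr4:110045846-110199199, minus strand), which turns palmitate into stearate, was a scarce mRNA in NT, at 9.017 and 8.221 CPM, and was at 28.54, 23.63 and 27.86 in KD. It rose 3.09-fold (log2 1.63 ± 0.10; edgeR quasi-likelihood, BH-adjusted p = 1.13e-12), and the lowest KD sample had 599 counts beside 239 in the higher NT sample. SCD (chr10:100347233-100364826, plus strand), which makes oleate from stearate, was at 440.1 and 415.4 CPM in NT and at 1004, 1057 and 1001 in KD. It rose 2.39-fold (log2 1.26 ± 0.05; BH-adjusted p = 2.97e-16). FADS2 (chr11:61792980-61867354, plus strand), the delta-6 desaturase, was at 315.8 and 326.9 CPM in NT and at 1132, 1047 and 1055 in KD, a rise of 3.36-fold (log2 1.75 ± 0.05; BH-adjusted p = 1.96e-18). FADS1 (chr11:61799627-61829318, minus strand), the delta-5 desaturase that acts after it, was at 103.3 and 103.4 CPM in NT and at 225.4, 200.4 and 204.3 in KD, a rise of 2.03-fold (log2 1.02 ± 0.05; BH-adjusted p = 6.5e-14). For each of these genes all KD samples exceeded all NT samples. The 9 calls held without any 1 of the 10 samples. The all-gene count behind the background did move with a single control, from 2823 higher and 2199 lower to 1796 and 1314 without NT replicate 1, and to 1376 lower without NT replicate 2. Bulk RNA averages over a sample, so more mRNA per cell and more cells at a high level cannot be told apart.

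Some low-level markers of other cell types were higher in KD than in NT, and they also had higher means in OE than in EV. Of 4 stromal markers, 3 were tested. In KD versus NT 2 of the 3 were called higher, where 16.4% of all genes were. OE versus EV had 0 of the 3 called, beside 11.6% of all genes higher and 10.3% lower. All 3 were positive there, with a median log2 difference of 0.57, beside 0.64 in KD versus NT. The 2 were COL1A1 at 15.1 ± 0.514 CPM (SD) in KD (n = 3) beside 9.787 ± 0.875 in NT (n = 2) and PDGFRB at 2.557 beside 1.184 CPM. Summed CPM of the 4 was 11.32 and 12.83 for NT against 19.84, 19.92 and 18.4 for KD. The same sum was 11.19 and 12.33 for EV against 17.35, 14.94 and 14.74 for OE. Most of it was COL1A1, and COL1A2 had 0 counts in all samples. PDGFRB was at 1.669 mean CPM in EV and 2.598 in OE. KRT14, 1 of 3 basal markers and the most abundant, was called higher in KD as well, at a summed basal level of 0.3773 and 0.4766 CPM in NT and of 1.532, 1.854 and 1.493 in KD, with KRT5 at 0 counts. KRT14 was at 0.6139 mean CPM in EV and 1.105 in OE, a difference that was not called. The part of these markers in the higher lipogenic genes was not tested.

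The comparison of OE with EV asks what excess CPT1A goes with. It moved most of the pathway in the same direction as KD versus NT, but by less. Of the 10 genes, 7 rose and 0 fell (edgeR quasi-likelihood test, BH-adjusted p under 0.0001), where 11.6% of all tested genes were called higher and 10.3% lower. The median log2 fold change of the 10 was 0.35, beside -0.02 over all genes. The desaturases FADS2 and SCD led, the synthase came next, and ACACA, ACACB and ELOVL6 did not pass. Scaling by library size alone changed the split of all called genes from 2004 higher and 1774 lower to 1220 and 2168, and left 5 of the 10 called.

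FADS2 was at 650.2 and 629.4 CPM in the EV samples and at 1321, 1323 and 1322 in the OE samples. The OE samples were nearly identical and stood about 2.07-fold above EV (log2 1.05 ± 0.05; edgeR quasi-likelihood, BH-adjusted p = 2.04e-14). SCD was at 905.8 and 851 CPM in EV and at 1531, 1521 and 1543 in OE, and rose 1.74-fold (log2 0.80 ± 0.05; BH-adjusted p = 3.2e-12). FASN was at 2287 and 2276 CPM in EV and at 3292, 3394 and 3392 in OE, and rose 1.47-fold (log2 0.56 ± 0.05; BH-adjusted p = 1.9e-09). These 3 genes passed without any 1 of the 10 samples. FADS1 was at 147.6 and 137.9 CPM in EV and at 189.2, 193.8 and 192.2 in OE (log2 0.43 ± 0.05; BH-adjusted p = 3.54e-07). SREBF1 was at 412.3 and 400.4 CPM in EV and at 525.9, 540.5 and 526 in OE (log2 0.39 ± 0.05; BH-adjusted p = 4.32e-07). Both rose in this test and had no overlap between the groups. Without EV replicate 2, which leaves 1 EV sample, the calls of FADS1 and SREBF1 were lost (log2 0.38 and 0.37; edgeR quasi-likelihood, BH-adjusted p = 0.000137 and 0.000126), and 3 of the 10 genes were called.

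The calls for the acetyl-CoA suppliers in OE stood close to the limit. ACLY was at 653 and 623.7 CPM in the EV samples and at 753.8, 792.4 and 752.5 in the OE samples (log2 0.26 ± 0.05; edgeR quasi-likelihood, BH-adjusted p = 4.07e-05). ACSS2 was at 40.56 and 37.28 CPM in EV and at 47.7, 49.69 and 48.09 in OE (log2 0.32 ± 0.06; edgeR quasi-likelihood, BH-adjusted p = 9.41e-05). OE samples exceeded EV samples for both genes. The ACLY call was lost without either EV sample, either NT sample or any 1 OE sample, with BH-adjusted p from 0.000106 without NT replicate 2 to 0.00514 without EV replicate 2. That of ACSS2 was lost without each of the same 7 samples and without KD replicate 1 or 3, with BH-adjusted p from 0.000108 without KD replicate 3 to 0.00996 without EV replicate 2. ACSS2 also lost it with replicate number as a block (BH-adjusted p = 0.000133) and with a filter of at least 10 counts in every sample (0.000132). Under library size alone both lost it (BH-adjusted p = 0.000807 for ACLY and 0.0036 for ACSS2). The log2 values stayed positive throughout, from 0.23 to 0.31 for ACLY and from 0.26 to 0.39 for ACSS2 over the left-out samples. The all-gene counts were 1153 higher and 912 lower without EV replicate 1 and 922 and 818 without EV replicate 2.

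The remaining genes gave smaller differences in OE. ACACA was at 949.7 and 942.7 CPM in the EV samples and at 1053, 1088 and 1050 in the OE samples, with a log2 difference of 0.17 ± 0.05 (edgeR quasi-likelihood, BH-adjusted p = 0.00281). ACACB was at 17.78 and 20.81 CPM in EV and at 16.91, 15.7 and 14.63 in OE, the only 1 of the 10 with lower values in OE (log2 -0.29 ± 0.09; BH-adjusted p = 0.00616). ELOVL6 was at 10.33 and 9.817 CPM in EV and at 10.77, 11.5 and 12.54 in OE (log2 0.20 ± 0.11; BH-adjusted p = 0.112). None of the 3 had overlapping groups, and none passed the limit of 0.0001, although ACACA passed it with DESeq2 (log2 0.18; BH-adjusted p = 7.39e-05). A group of 2 samples and a small difference limit what could be detected here, and these p-values do not show that the lines were alike.

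**Figure D2:**
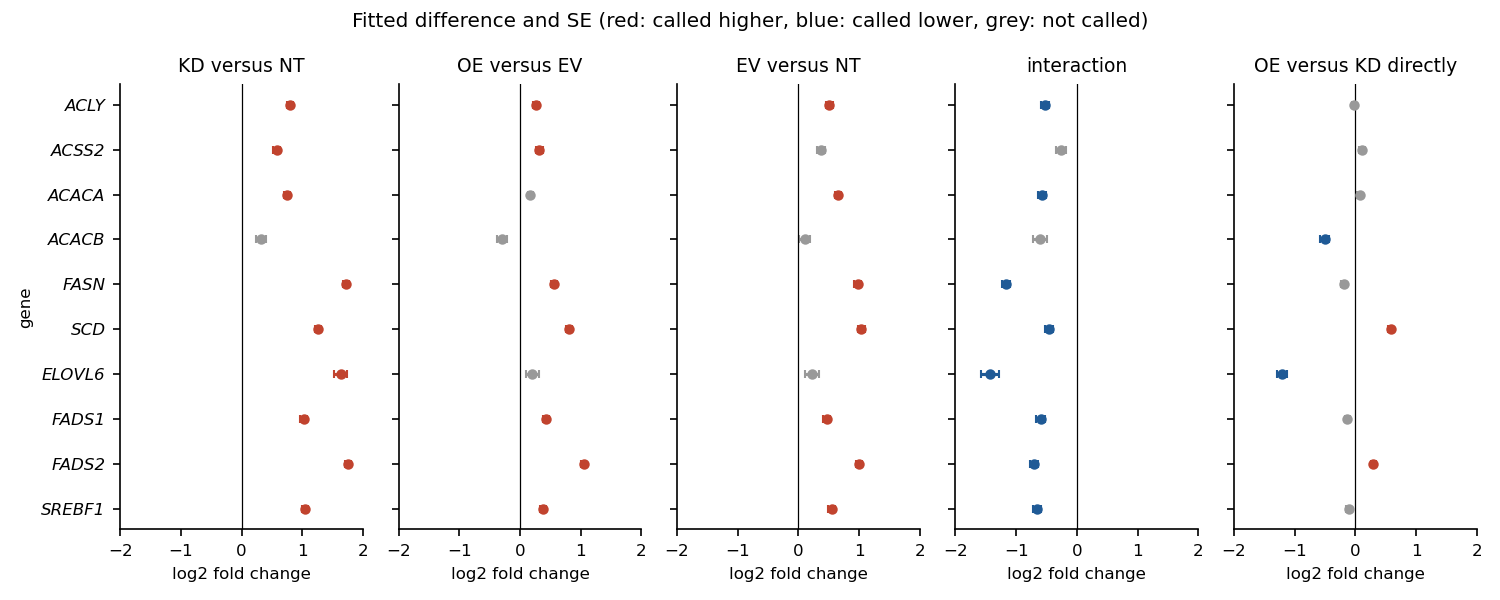
Fitted log2 fold change (horizontal axis) with its SE for the 10 genes in 5 comparisons, where red marks genes called higher, blue genes called lower and grey genes not called at an adjusted p under 0.0001. The 10 genes lie right of 0 in KD versus NT and left of 0 in the interaction, and SCD, FADS2, ACSS2 and ACACA lie right of 0 when OE and KD are compared directly, of which SCD and FADS2 were called.

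The control lines were compared with each other because their difference enters the interaction. EV exceeded NT for most of the pathway, although neither line was made to alter CPT1A. Of the 10 genes, 7 stood higher in EV and 0 lower (BH-adjusted p under 0.0001, edgeR quasi-likelihood F test), where 5.25% of all tested genes were called higher and 2.91% lower. The median log2 difference was 0.53, beside -0.004 over all genes. SCD was higher by 1.04 ± 0.05 on the log2 scale (SE), FADS2 by 0.99 ± 0.05, FASN by 0.97 ± 0.05, ACACA by 0.65 ± 0.05, SREBF1 by 0.55 ± 0.05, ACLY by 0.51 ± 0.05 and FADS1 by 0.47 ± 0.06. ACSS2 had 0.37 ± 0.07 (edgeR quasi-likelihood, BH-adjusted p = 0.000139), ELOVL6 0.23 ± 0.12 and ACACB 0.10 ± 0.09, none of which passed. CPT1A itself was higher in EV by 0.29 ± 0.05 (BH-adjusted p = 9.8e-05). The control of FASN in the OE arm thus stood 1.96-fold above the control in the KD arm.

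The call for FADS1 between the controls was lost without NT replicate 1 (log2 0.47; edgeR quasi-likelihood, BH-adjusted p = 0.000104) and without EV replicate 1 (log2 0.41; BH-adjusted p = 0.000305). ACACB turned to -0.01 without EV replicate 2, and its EV and NT samples overlapped. ACSS2 was called without KD replicate 2 (BH-adjusted p = 1.63e-05), and also with no filter (2.56e-05), with DESeq2 (3.43e-05) and with the control samples fitted alone (4.51e-06). The all-gene counts rested on single samples: 905 higher and 501 lower became 376 and 178 without NT replicate 1, 410 and 221 without NT replicate 2, 339 and 170 without EV replicate 1, 440 and 180 without EV replicate 2, and 1459 and 979 without KD replicate 2. The lines differ in vector, in selection drug and in whatever arose when each was made, and these cannot be told apart.

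The interaction, which takes the KD versus NT difference away from the OE versus EV difference, is the contrast the study's methods name. Every one of the 10 genes had a negative value, since each had a smaller or a negative difference in the OE arm. Of the 10, 8 were called lower and 0 higher (edgeR quasi-likelihood test, BH-adjusted p under 0.0001), where 8.98% of all tested genes were called lower and 6.94% higher. The median of the 10 was -0.60 on the log2 scale, beside -0.017 over all genes. ELOVL6 had the most negative value, -1.43 ± 0.15 (SE; edgeR quasi-likelihood, BH-adjusted p = 2.76e-08), and FASN followed at -1.16 ± 0.07 (BH-adjusted p = 1.79e-12). FADS2 had -0.70 ± 0.07, SREBF1 -0.65 ± 0.07, FADS1 -0.60 ± 0.07, ACACA -0.57 ± 0.06, ACLY -0.53 ± 0.07 and SCD -0.45 ± 0.07. ACACB had -0.61 ± 0.12 (BH-adjusted p = 0.000201) and ACSS2 -0.26 ± 0.09 (BH-adjusted p = 0.0155), and neither passed. A lower interaction here does not mean lower mRNA in OE cells, because the genes called lower rose in KD and most of them rose in OE too.

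The SCD call was lost without NT replicate 2 (log2 -0.41; edgeR quasi-likelihood, BH-adjusted p = 0.000262) and without EV replicate 1 (log2 -0.39; BH-adjusted p = 0.00042), and ACACB was called without KD replicate 2 (BH-adjusted p = 4.81e-05), with no filter (1.75e-05) and under library size alone (6.59e-05). Library size alone moved the median of all genes from -0.017 to -0.151. It moved the split of called genes from 1196 higher and 1548 lower to 693 and 2127. Values of the 10 under library size alone are therefore best read beside -0.151, and the TMM-scaled values given above beside -0.017. The all-gene counts were 768 higher and 1018 lower without NT replicate 1, 747 higher without EV replicate 2 and 1024 lower without EV replicate 1.

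OE and KD were also compared directly, leaving the controls out of the contrast, and most of the 10 then did not pass. Among the 10, OE had 2 genes called higher and 2 called lower (edgeR quasi-likelihood test, BH-adjusted p under 0.0001), where 15.5% of all tested genes were called higher and 16.4% lower, so the counts were near the background. The median of the 10 was -0.06 on the log2 scale, beside -0.018 over all genes. SCD was higher in OE by 0.59 ± 0.04 on the log2 scale (SE; edgeR quasi-likelihood, BH-adjusted p = 1.8e-11), or 1.5-fold, and FADS2 by 0.29 ± 0.04 (BH-adjusted p = 1.26e-06). ELOVL6 had -1.20 ± 0.08 (BH-adjusted p = 1.26e-11) and ACACB -0.50 ± 0.08 (BH-adjusted p = 3.35e-06). The groups of these 4 genes did not overlap. All 4 calls held without any 1 of the 10 samples, and that of FADS2 was lost under library size alone (log2 0.16; BH-adjusted p = 0.000908).

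The other 6 genes did not pass between OE and KD. FASN had -0.19 ± 0.04 on the log2 scale (edgeR quasi-likelihood, BH-adjusted p = 0.00046), FADS1 -0.13 ± 0.05 and SREBF1 -0.11 ± 0.04, and under library size alone, where the median of all genes moved to -0.148, these 3 were called lower. FASN was also called lower with no filter, with DESeq2 and with limma-voom. ACLY had -0.02 ± 0.04, and turned to 0.002 without KD replicate 2. ACSS2 had 0.11 ± 0.05 and ACACA 0.08 ± 0.04, and both turned negative under library size alone, at -0.02 and -0.05. With that scaling 1 gene was called higher and 5 lower, and the split of all called genes went from 2670 higher and 2820 lower to 1663 and 3705. For FASN, the interaction of -1.16 was made up of -0.19 between OE and KD and of the 0.97 by which EV exceeded NT. For SCD the direct value and the interaction had opposite signs, 0.59 and -0.45. The sign for SCD, FADS2, ACACA and ACSS2 therefore depended on whether the control lines entered.

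Ratios of counts within a library need no scaling between libraries and show the uneven moves directly. ACACA relative to FASN was 0.519 ± 0.011 (SD, n = 2) in NT, 0.414 ± 0.00071 in EV, 0.317 ± 0.0061 in OE (n = 3) and 0.263 ± 0.0066 in KD, as FASN rose more than the carboxylase that feeds it. SCD relative to FASN was 0.387 and 0.35 in the NT samples, 0.396 and 0.374 in EV, 0.465, 0.448 and 0.455 in OE and 0.261, 0.265 and 0.273 in KD. The controls overlapped, KD lay below all other samples and OE above all others. FADS2 relative to FADS1 was 3.11 ± 0.071 in NT, 4.48 ± 0.11 in EV, 5.13 ± 0.1 in KD and 6.9 ± 0.076 in OE. ELOVL6 relative to FASN was 0.00742 ± 0.0007 in NT and 0.00698 ± 0.00092 in KD, where samples overlapped, and 0.00441 ± 0.00015 in EV and 0.00345 ± 0.00022 in OE. These ratios are of counts and not of molecules, since the genes differ in length, and no test was run on them.

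**Figure D3:**
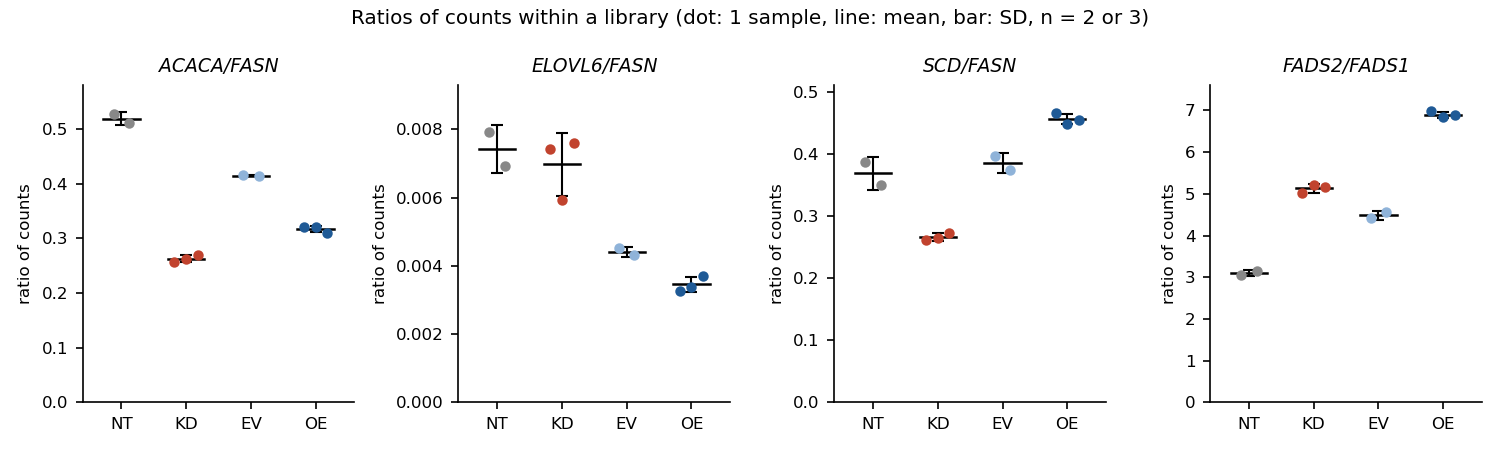
Ratio of counts of 2 genes within each library (vertical axis from 0) by line, with 1 dot per sample, the mean as a horizontal line and the SD as a bar. SCD relative to FASN was lowest in the 3 KD samples and highest in the 3 OE samples, and ACACA relative to FASN was highest in the 2 NT samples.

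Genes around the pathway were described by lists written from general knowledge. Of 12 sterol-branch SREBP targets reported here, 12 rose and 0 fell in KD versus NT, beside 16.4% and 12.8% of all tested genes, with a median log2 fold change of 0.56. These are not the whole planned list, so the 12 of 12 is not a tally of that list. In OE versus EV 4 rose and 0 fell, beside 11.6% and 10.3%, with a median of 0.34. EV exceeded NT for 6 of the 12, beside 5.25% of all genes, and in the interaction 4 were lower and 0 higher, beside 8.98% and 6.94%. A rise in KD and a higher level in EV than in NT were therefore also seen outside the fatty acid genes. SREBF2, the paralogue of SREBF1, rose by 0.30 ± 0.05 on the log2 scale in KD (SE), much less than SREBF1. In OE it rose by 0.45 ± 0.05, beside 0.39 ± 0.05 for SREBF1, a difference that was not tested. HMGCS1, an early mevalonate enzyme, rose by 0.45 ± 0.06 in KD and had -0.23 ± 0.07 in OE, which did not pass. FDPS, which makes farnesyl diphosphate, rose by 0.90 ± 0.05 in KD and by 0.39 ± 0.05 in OE, and LSS, which closes the sterol rings, rose by 0.70 ± 0.06 in KD and had 0.09 ± 0.06 in OE. Their interactions were -0.69 for HMGCS1, -0.51 for FDPS and -0.62 for LSS, all called lower.

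Of 16 genes of SREBP and LXR control, 5 rose in KD versus NT and 7 rose and 1 fell in OE versus EV, with medians of 0.16 and 0.28. Over all tested genes 16.4% rose and 12.8% fell in KD versus NT, and 11.6% and 10.3% in OE versus EV. INSIG1, an SREBP target that holds SREBPs in the endoplasmic reticulum, rose by 1.42 ± 0.06 in KD and 0.47 ± 0.06 in OE, and its interaction was -0.95 (edgeR quasi-likelihood, BH-adjusted p = 1.27e-09). NR1H2, which encodes LXR beta, rose by 0.74 ± 0.06 in OE only, with 0.07 ± 0.06 in KD, and an interaction of 0.68 (BH-adjusted p = 1.93e-07). ABCA1, a classical LXR target, stood at 1.24 CPM in NT and below 1 CPM in the other lines, and did not pass in either arm. In the interaction 1 of the 16 was higher and 1 lower, beside 6.94% and 8.98% of all genes.

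Among 15 tested genes of the other elongation and desaturation steps, 10 rose and 2 fell in KD versus NT, while 3 rose and 3 fell in OE versus EV, with medians of 0.53 and -0.06. The shares over all genes were 16.4% and 12.8% in KD versus NT and 11.6% and 10.3% in OE versus EV. ELOVL2, which lengthens very long polyunsaturated chains, rose by 1.74 ± 0.13 in KD and had -0.63 ± 0.13 in OE, for an interaction of -2.36. ELOVL5, which lengthens the products of FADS2, rose by 0.81 ± 0.05 in KD and had 0.17 ± 0.05 in OE, and it was higher in EV than in NT by 1.25 ± 0.05. The dehydratases HACD2 and HACD3 rose by 0.56 ± 0.05 and 0.36 ± 0.05 in KD, and HACD3 fell by 0.31 in OE. ELOVL7 rose by 0.88 ± 0.07 in KD and had 0.05 ± 0.07 in OE. SCD5 went the other way from SCD in both arms, and FADS3 went the other way from FADS2 in KD. SCD5, the second stearoyl-CoA desaturase, fell by 1.03 in KD and by 0.52 in OE. FADS3, of the FADS cluster, fell by 0.90 in KD, and its mean was 29.65 CPM in EV and 27.16 in OE. SCD5 and FADS3 were both picked out after their values were seen. In the interaction 7 of the 15 were lower and 1 higher, where 8.98% of all genes were lower and 6.94% higher.

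The supply of carbon and reducing power showed no common direction. Of 16 tested genes, 5 rose and 3 fell in KD versus NT and 3 rose and 1 fell in OE versus EV, with medians of 0.22 and -0.05. Among all genes 16.4% rose and 12.8% fell in KD and 11.6% and 10.3% did so in OE, and no test set the 16 genes apart from these shares. ME1, malic enzyme that makes cytosolic NADPH, fell by 0.57 in KD and had -0.02 ± 0.05 in OE, while PDHA1 of pyruvate dehydrogenase and its kinase gene PDK3 rose by 0.39 ± 0.05 and 0.41 ± 0.06 in KD. In the interaction 1 of the 16 was higher and 2 lower, near the 6.94% and 8.98% of all genes.

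Helpers of FASN and of the carboxylases, with the kinase AMPK that inhibits the carboxylases, were a list of 12 tested genes, of which 2 rose and 3 fell in KD versus NT and 3 rose and 0 fell in OE versus EV, with medians of -0.26 and -0.04. Over all genes 16.4% were called higher and 12.8% lower in KD, and 11.6% and 10.3% in OE, and no test set the 12 genes apart from these shares. TRIB3, known to promote degradation of the carboxylase protein, fell by 1.79 in KD and rose by 0.65 ± 0.06 in OE, for an interaction of 2.44 ± 0.09 (edgeR quasi-likelihood, BH-adjusted p = 1.82e-16). Its mean was 291.6 CPM in NT and 84.5 in KD, then 265.2 in EV and 416.7 in OE, the opposite order to that of ACACA between NT and KD. MID1IP1, which helps ACC polymerise, rose by 0.48 ± 0.05 in OE and had -0.21 ± 0.05 in KD. PRKAG1, an AMPK subunit, had 0.24 ± 0.05 in OE and -0.25 ± 0.05 in KD, and passed in the interaction (0.48). THRSP, a lipogenic partner of MID1IP1, rose by 3.85 ± 0.46 in KD from very low levels, 0.09829 to 1.452 mean CPM, and is named after its values were seen. In the interaction 3 of the 12 were higher and 0 lower, where all genes had 6.94% and 8.98%.

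Mitochondrial fatty acid synthesis, is a separate route with its own enzymes. Of 10 genes, 2 rose in KD versus NT and 3 rose in OE versus EV, 0 fell in either, and the medians were 0.05 and 0.07. In KD this is close to the 16.4% of all genes that rose, beside 12.8% that fell, and in OE the shares were 11.6% and 10.3%. HSD17B8 rose by 0.53 ± 0.07 in OE and had -0.03 ± 0.07 in KD, with an interaction of 0.56 that was the only 1 called among the 10, near the 6.94% higher and 8.98% lower of all genes.

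**Figure D4:**
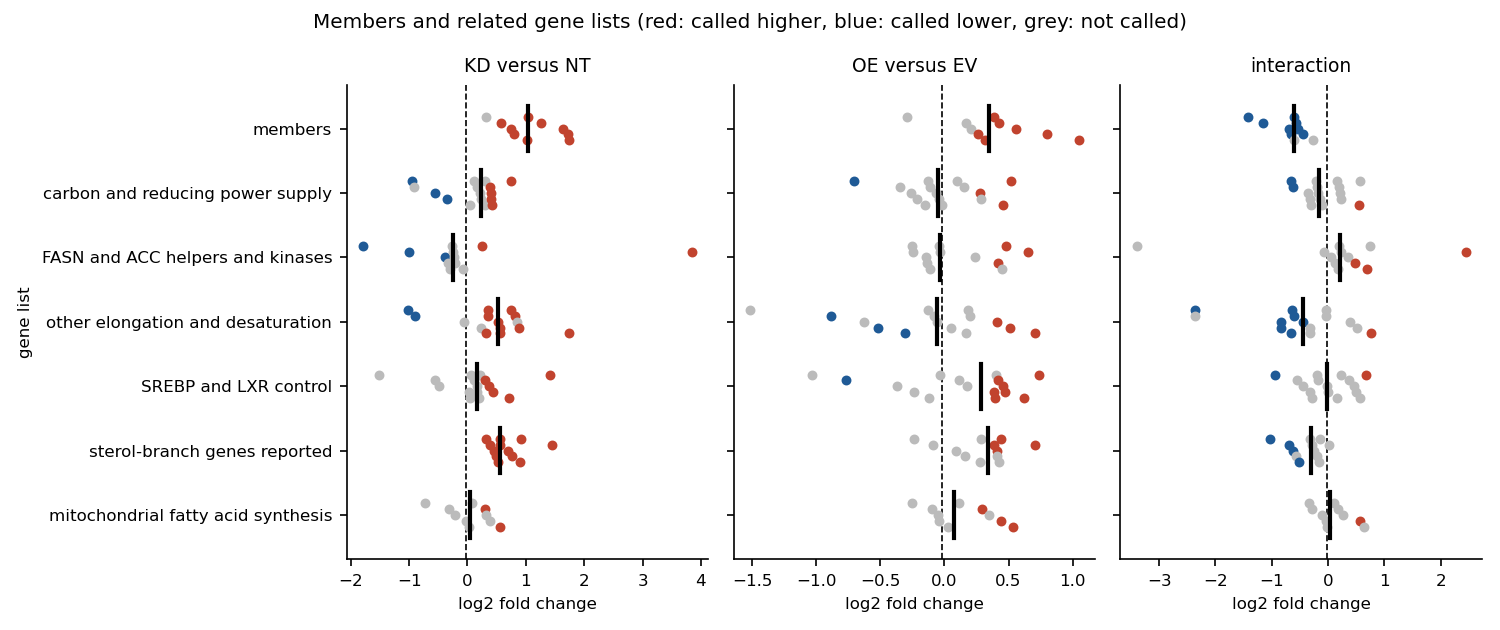
Log2 fold change (horizontal axis) of each tested gene of the lipogenic genes and 6 related lists, with the sterol-branch list cut to the 12 genes reported. KD versus NT, OE versus EV and the interaction are shown, with black bars for list medians and a dashed line for the median of all genes. In KD versus NT the lipogenic genes had a median of 1.03, the sterol-branch genes reported 0.56 and the mitochondrial list 0.05.

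The genes whose levels followed the pathway most closely were sought over the 10 samples among 10055 genes with an average log2 CPM of at least 3. For FASN the highest Pearson r was with SREBF1 (0.9964), followed by TYRO3, GSR, MARVELD2 and ST6GALNAC1, the last at 0.9927. For SREBF1 it was MARVELD2 (0.9979), then FASN, AKT1, GSR and AP2A1. For SCD it was SLC9A3R2 (0.9974), then MAP7D1, SHROOM3, LCP1 and MRPS18A. The points are 4 lines with 2 or 3 samples each, so such values mostly compare line means, and 347, 390 and 399 genes exceeded 0.95 for FASN, SREBF1 and SCD. SREBF1 was among the 5 nearest to FASN and FASN among the 5 nearest to SREBF1, whereas none of the 10 lipogenic genes was among the 5 nearest to SCD.

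Position was looked at because several of the genes lie close together or overlap. ACLY, ACACA, FASN and SREBF1 are on chromosome 17, at separate places, and FADS1 and FADS2 are neighbours on chromosome 11. The annotated exons of FADS1 and FADS2 share 490 bases on opposite strands, FADS2 shares 49 bases with FEN1, and SREBF1 shares 556 bases with RAI1 on the opposite strand. ELOVL6 shares 240 bases and ACLY 156 bases, each with a long noncoding RNA gene on the opposite strand. The sources used here do not state whether strand was used in counting, so reads from the shared stretches cannot be told apart. The values of these genes are uncertain to that extent, among them FADS1, the scarcer gene of its pair with FADS2, and ELOVL6, a scarce mRNA. FADS2 had 233215 counts over all samples and FADS1 43641.

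Genes near the pathway were summarised by their medians, which are not on a par with the values of single genes. Tested genes within 5 Mb of FADS1 and FADS2 (187 genes) had a median log2 difference of 0.21 in KD versus NT and 0.24 in OE versus EV. Around FASN the 94 neighbours had 0.17 and 0.19, and around SCD the 101 neighbours had 0.14 and -0.14, while SCD itself rose in both arms. Around ELOVL6 the 34 neighbours had -0.44 in KD versus NT, where ELOVL6 rose by 1.63. The median over all tested genes was -0.02 in both arms and -0.004 in EV versus NT. Between these control lines the neighbours of FADS1 and FADS2 had 0.18, those of FASN 0.17, of SCD 0.08 and of ELOVL6 -0.22. The part of position in these results was not tested.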

How the data were processed

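Gene expression was measured by RNA sequencing of mRNA libraries (NuGen Universal Plus mRNA, paired NovaSeq reads) from 10 samples, 23555205 to 28615770 counts each. The authors trimmed reads with BBDuk, aligned and quantified them with STAR 2.6.0a against Ensembl release 96, and deposited whole-number counts for 57353 gene symbols. Strandedness and the handling of reads that match several genes are not given in the sources used here. Samples were grouped by their labels, and 0 columns were unused. In R 4.3.3, edgeR 4.0.16 kept 17230 genes (filterByExpr), scaled them with TMM and fitted 1 mean per line. Contrasts were tested by the quasi-likelihood F test with Benjamini-Hochberg (BH) adjustment over all tested genes, and a call needed a value below 0.0001, as the study used. SE is the log2 fold change divided by the square root of F. Alternatives used DESeq2 1.42.0, limma 3.58.1, other filters and scalings, a replicate block, each arm alone and each sample left out. Calls for OE against KD directly were tried under these after the data were seen. The members and lists were chosen with earlier results of these data known. Named genes were the 10 members, CPT1A, up to 5 genes per list with the smallest interaction p among those called, and the 5 genes most like FASN, SCD and SREBF1 (log2 CPM, prior count 2). SREBF2, ABCA1, SCD5, FADS3 and THRSP were added after their values were seen. Exon lengths and positions came from GENCODE 44 (GRCh38), and exon length is that of all annotated exons merged, which may exceed the transcript in these cells. Some planned genes of the sterol-branch list are not reported here, and its summary leaves them out.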

Additional observations from a re-analysis of the deposited data

How the results depend on the processing

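All 9 KD versus NT calls, and the calls of FASN, SCD and FADS2 in OE versus EV, held under every alternative run. Every alternative kept NT as the control of KD, so none tried the choice of control. Relative to NT, ACACA was higher by 0.74 in KD and 0.65 in EV on the log2 scale, and SCD by 1.26 and 1.04. The gap was wider for FASN (1.72 and 0.97) and ELOVL6 (1.63 and 0.23). KD was not tested against EV. At an adjusted p under 0.05, genes called higher and lower became 4411 and 4545 for OE versus EV. They became 5019 and 4886 for KD versus NT, 3492 and 4139 in the interaction, 3194 and 2673 in EV versus NT and 5024 and 5277 in OE versus KD directly. ACACB was then called lower in OE versus EV (1 member), and 5 members were lower in OE versus KD directly. Scaling by library size alone gave 1220 genes higher in OE versus EV, 693 in the interaction and 1663 in OE versus KD directly, where 1 member was higher and 5 lower, ACSS2 turned to -0.019 and ACACA to -0.054. Without controls the interaction of ACSS2 became 0.111, ACACA 0.076, SCD 0.585 and FADS2 0.294, because EV exceeded NT. EV versus NT had 1401 genes higher and 905 lower with no filter, and 1808 and 1314 with the control samples fitted alone. The cause of the other moves was not tested.

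Leaving out 1 sample at a time gave 922 to 2594 genes higher and 818 to 2375 lower in OE versus EV, with 3 to 7 members higher. It gave 1796 to 2999 and 1314 to 2340 in KD versus NT, 747 to 1601 and 1018 to 2095 in the interaction, and 339 to 1459 and 170 to 979 in EV versus NT. ACACB in EV versus NT ranged from -0.012 to 0.203, and ACLY in OE versus KD directly from -0.045 to 0.002. The highest all-gene counts in each of these ranges came without KD replicate 2. That sample differed most from its sister samples, with a chi-square of counts per degree of freedom of 6.7 and 6.93, beside 2.29 between the other KD samples. OE replicate 2 came next, at 3.81 and 4.38, beside 2.15 between the other OE samples. All lines shared 1 estimate of the spread, so a deviant sample also enters contrasts without its line. A lone control sample was assumed to vary like the other groups.

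With the replicate block, 6 members were higher in OE versus EV, where ACSS2 lost its call (0.32, BH-adjusted p = 0.000133), and no other member's call changed. Same-numbered samples did not deviate together (mean r -0.00282 over 13 pairs, from -0.0443 to 0.0783), so the numbers were not taken as pairing. ACACA passed in OE versus EV with DESeq2 and at the limit of 0.05. Groups of 2 limit what small differences can show.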
